A study of Mus musculus with 15 samples.

Results

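The genes described here are the Wnt ligands, their receptors and the proteins that modulate the signal, 48 protein-coding genes of the 53337 genes in the table. They were taken by symbol: 19 Wnt ligands, 10 Frizzled receptors, and a named set of co-receptors, R-spondins, secreted inhibitors, ligand processing proteins and intracellular transducers. Levels are in TPM, the deposited transcript abundance unit that is scaled for transcript length and library total, summed over the transcripts of each gene. Dams of the C57BL/6J strain carried subcutaneous pumps that released arginine vasopressin (AVP), a peptide hormone used here to model preeclampsia, or saline, from before breeding through pregnancy. Dorsal forebrain of their embryonic day 18 (E18) offspring was sequenced in 15 libraries: 4 AVP males (AVP male 1, 2, 8 and 9), 4 saline males (saline male 4, 5, 12 and 13), 3 AVP females (AVP female 3, 10 and 11) and 4 saline females (saline female 6, 7, 14 and 15). The labels call the saline groups vehicle, and all groups share strain, age and tissue. The study states that samples of a group came from separate litters, but the labels tie no sample to a litter. It drew fewer litters than samples, so male and female libraries share litters, and the fits over both sexes and the correlations, which treat all 15 libraries as independent, could not take this into account. Another AVP female left out by the authors was not analysed here.

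Wnt proteins are secreted lipid-modified ligands. Porcn attaches the lipid, Wls carries the ligand to the cell surface, and Frizzled receptors with the co-receptors Lrp5 or Lrp6 receive it. In the canonical branch the signal keeps β-catenin (Ctnnb1) from a destruction complex built on Axin, and β-catenin then acts with TCF and LEF factors in the nucleus. In the developing forebrain the cortical hem, at the medial edge of the cortex, is a known Wnt source that patterns the hippocampus.

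Several libraries stood apart. In the library labelled saline male 12, Xist was at 266 TPM and 4 Y-linked genes summed to 0.489 TPM, against a sum of at least 102 TPM in the other 7 male libraries and at most 1.01 TPM in the females. It was kept under its label, and the fitted male, both-sex, interaction and sex differences of the named members are also given without it. AVP female 10 was the highest library for 19 of the 48 members, and the female differences that it moved most are also given without it. The summed level of 12 choroid plexus markers was 585 to 2300 TPM in 6 libraries (AVP male 1, AVP female 3 and 11, saline male 4 and 5, saline female 7) and 9.24 to 30.8 TPM in the other 9. The 8 cortical plate markers were at 1 TPM or more in all 15 libraries, with summed levels of 1030 to 1400 TPM, so the labelled tissue carried its defining neuronal genes.

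The TCF and LEF factors recognise short DNA words, and the promoters of 3 members are printed. Wls and Lef1 were taken for the smallest p-values in females, and Fzd7 because it followed the hem and Cajal-Retzius markers. Each window runs from 250 bases before to 50 bases after a RefSeq start site, on the plus strand of GRCm38.p6. Both strands were searched for the word CTTTGAT, for its variant ending in A, which is CTTTGAA, for the word CTTTGTT and for the variant of that ending in A, which is CTTTGTA. Matches on opposite strands can overlap in their last letters, and a match is shown in capitals.
Wls, chr3:159839400-159839699: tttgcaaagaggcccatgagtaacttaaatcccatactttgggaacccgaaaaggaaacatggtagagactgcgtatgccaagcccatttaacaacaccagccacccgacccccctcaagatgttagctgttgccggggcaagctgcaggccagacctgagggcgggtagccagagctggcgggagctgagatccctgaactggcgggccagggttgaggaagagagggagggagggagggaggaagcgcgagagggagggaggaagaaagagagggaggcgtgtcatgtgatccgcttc
Lef1, chr3:131110047-131110346: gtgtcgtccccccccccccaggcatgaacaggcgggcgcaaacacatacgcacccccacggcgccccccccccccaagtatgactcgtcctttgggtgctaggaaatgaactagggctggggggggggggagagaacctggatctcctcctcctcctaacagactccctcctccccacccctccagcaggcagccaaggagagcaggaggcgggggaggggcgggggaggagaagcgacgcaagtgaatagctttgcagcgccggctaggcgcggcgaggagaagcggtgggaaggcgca
Fzd7, chr1:59481897-59482196: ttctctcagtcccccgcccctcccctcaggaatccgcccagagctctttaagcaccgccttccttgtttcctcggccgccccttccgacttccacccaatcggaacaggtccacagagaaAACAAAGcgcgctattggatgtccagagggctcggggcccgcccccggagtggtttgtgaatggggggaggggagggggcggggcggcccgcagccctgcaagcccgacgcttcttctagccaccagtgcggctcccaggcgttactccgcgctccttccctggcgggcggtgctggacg
The Fzd7 window held CTTTGTT on the minus strand, read as AACAAAG on the printed strand. The Wls window and the printed Lef1 window, the first of 4 for that gene, held none of the words. Of the other Lef1 windows, the one at chr3:131156044-131156343 held CTTTGTA on the minus strand and the rest held none. RefSeq windows were found for 32 of the 48 members, 40 windows in all, and 7 of them (17.5%) held a word, against 5544 of all 32851 promoter windows (16.9%).

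Of the 48 members, 28 were at 1 TPM or more in all 15 libraries and 11 were under 1 TPM in all of them. Ctnnb1, on chromosome 9, was the highest by far, with a lowest value of 487, a median of 566 and a highest of 698 TPM. Every role had at least 1 member above 1 TPM throughout, as the plot of all members by role shows.

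**Figure D1:**
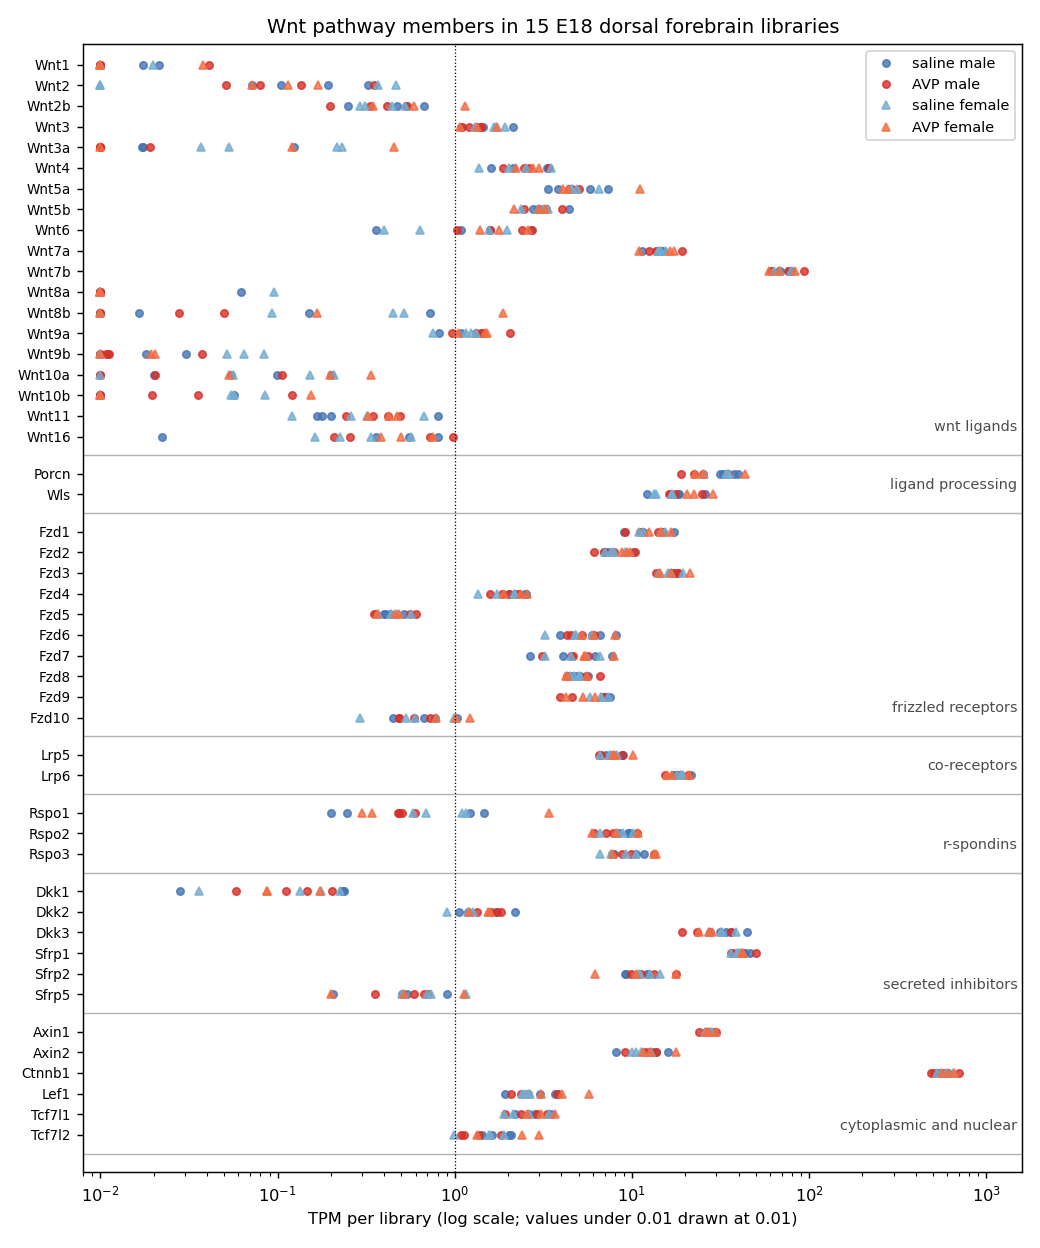
TPM of each of the 48 members (rows, grouped by role) in each of 15 libraries (points, coloured by group) on a log axis, with values under 0.01 TPM drawn at 0.01 and a dotted line at 1 TPM. Ctnnb1 lay between 487 and 698 TPM, Wnt7b between 59.1 and 93.6 TPM, and 9 of the 19 ligands lay left of the line in all libraries.

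Among the ligands, 6 of 19 were at 1 TPM or more in every library and 9 were under it in every library. Wnt7b, known as a cortical neuron and progenitor ligand that also acts on brain vessels, led with 59.1 to 93.6 TPM and a median of 68.7 TPM. It was 60.6, 75.5, 60.8 and 93.6 TPM in the AVP males and 67.9, 76.9, 68.9 and 79.3 TPM in the saline males. In females it was 82.7, 59.1 and 67.2 TPM with AVP and 63.6, 79.2, 67.9 and 68.7 TPM with saline, and in both sexes the groups overlapped. Wnt7a, its closest relative, followed at 10.9 to 19.2 TPM, and these ranges did not meet. Wnt6 ranged from 0.360 TPM in saline male 4 to 2.72 TPM in AVP male 2.

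Of the proteins that process ligands, Porcn was at 18.9 to 43.2 TPM and Wls at 12.1 to 28.6 TPM. The Frizzled receptors were led by Fzd3, best known for axon guidance, at 13.7 to 21.3 TPM, with Fzd1 at 9.04 to 17.3 TPM, and these ranges overlapped. Fzd5 was under 1 TPM in all libraries. The co-receptor Lrp6 was at 15.3 to 21.4 TPM and Lrp5 at 6.52 to 10.1 TPM, without overlap. R-spondins, which stabilise Frizzled receptors at the membrane, were led by Rspo3 at 6.63 to 13.7 TPM and Rspo2 at 5.95 to 10.8 TPM, which overlapped. The secreted inhibitors were led by Sfrp1, which binds Wnt ligands, at 36.1 to 49.9 TPM, and by Dkk3, a divergent Dickkopf protein, at 19.2 to 44.5 TPM. The scaffold Axin1 ranged from 23.8 to 29.9 TPM.

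Part of these gene sums came from transcripts annotated as not coding. Of the Wls sum, the transcript Wls-206, annotated as a target of nonsense-mediated decay, held a median share of 41.0% over the libraries, and the coding Wls-201 held 34.6%. Porcn-205, of the same class, held 31.8% of the Porcn sum and the coding Porcn-201 held 55.7%. A retained-intron transcript held a median of 42.2% of the Ctnnb1 sum, and another of that class held 33.1% of the Lrp6 sum. Dkk3 and Fzd9 each have 1 transcript in the table.

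The male comparison asked how AVP in the dam bore on these genes in male forebrain. By limma on log2(TPM + 0.5), 0 of the 32 members tested passed an adjusted p of 0.05, against 0.00655% of all 15271 genes tested. At an unadjusted p under 0.05, 2 members were lower with AVP and 0 were higher, against 12.4% lower and 1.11% higher over all genes. In 1 member, Fzd9, the groups did not overlap and AVP was lower, and in 0 members AVP was higher without overlap, against 6.53% and 0.733% of all genes. The members' counts were no higher than these shares give. Of the 32, 9 had a positive and 23 a negative difference, against 26.4% positive over all genes tested. The median log2 difference was -0.05 against -0.10 over all genes. The members' split turned with the scaling, since 21 were positive under median-of-ratios scaling (all-gene median 0.00) and 22 under quantile normalization (0.02).

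Porcn, on chromosome X at 8193848 to 8206525 (GRCm38, minus strand), was 22.5, 18.9, 25.1 and 35 TPM in AVP males 1, 2, 8 and 9. It was 37.9, 32.7, 39.6 and 31.6 TPM in saline males 4, 5, 12 and 13. AVP male 9 lay among the saline libraries and the other 3 AVP males lay below them all. The log2 difference was -0.50 (SE 0.17, limma adjusted p = 0.312), and -0.45 (limma adjusted p = 0.612) without the library labelled saline male 12.

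Dkk3, on chromosome 7 at 112116017 to 112159057 (minus strand), was 36.4, 27.6, 23.2 and 19.2 TPM in the AVP males and 44.5, 31.3, 34.0 and 36.0 TPM in the saline males. AVP male 1 exceeded 3 of the 4 saline libraries. Its log2 difference was -0.47 (SE 0.19, limma adjusted p = 0.333). Without saline male 4 it was -0.38 (limma adjusted p = 0.555), no longer under an unadjusted 0.05. Without the library labelled saline male 12 it was -0.50. It also missed an unadjusted 0.05 without saline male 13 (-0.48), AVP male 8 (-0.42) or AVP male 9 (-0.33), under median-of-ratios scaling (-0.36) and under quantile normalization (-0.34).

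Fzd9, a Frizzled receptor gene on chromosome 5 at 135248938 to 135251230 (minus strand), was 6.87, 6.86, 3.94 and 4.57 TPM in the AVP males and 7.12, 7.02, 7.54 and 6.95 TPM in the saline males. All AVP values lay below all saline values, 5.56 ± 1.53 against 7.16 ± 0.263 TPM (SD, n = 4 each, exact permutation test, two-sided, p = 0.0286, which is the floor for 4 against 4). The gap differed between the runs of sample numbers in the labels: AVP minus saline was -0.04 on the log2 scale in the first run (2 against 2 libraries) and -0.71 in the second (2 against 2). The limma log2 difference was -0.37 (SE 0.18, limma adjusted p = 0.394). With 1 library left out in turn it ranged from -0.48 to -0.24, and it was -0.35 without the library labelled saline male 12. Leaving out a library cannot make separate groups overlap, so the lack of overlap in all of these adds no evidence. The exact permutation p was 0.0286, again the floor, without an AVP male and 0.171 without a saline male. The exact test also missed 0.05 under median-of-ratios scaling, where the log2 difference was -0.27.

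The nuclear and R-spondin members next in order by p were Tcf7l2, a TCF factor of the thalamus among other tissues, and Rspo2. Tcf7l2 was 1.12, 1.09, 1.37 and 1.83 TPM with AVP and 1.63, 2.03, 2.08 and 1.43 TPM with saline in males, overlapping groups with a log2 difference of -0.32 (limma adjusted p = 0.486), or -0.26 without the library labelled saline male 12. Rspo2 was 10.7, 7.84, 7.14 and 6.13 TPM with AVP and 9.62, 8.48, 9.66 and 9.51 TPM with saline, with AVP male 1 above all saline males, a log2 difference of -0.24 (-0.22 without the library labelled saline male 12). Wls was 17.4, 24.9, 16.1 and 16.4 TPM with AVP and 12.1, 25.9, 18.1 and 18.5 TPM with saline, a log2 difference of 0.03 with and without the library labelled saline male 12. Axin2 and Lef1, which canonical signalling is known to induce, had log2 differences of -0.05 and -0.17. Without the library labelled saline male 12 they were 0.00 and -0.07, and the sign for Axin2 turned under both other scalings.

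In females, 0 of 32 members passed an adjusted p of 0.05 by limma, as did 0% of all 15132 genes tested. At an unadjusted p under 0.05, 2 members (Wls and Lef1) were higher with AVP and 0 were lower, against 2.34% and 2.17% of all genes. The groups did not overlap for 3 members, all higher with AVP (Wls, Lef1 and Sfrp1), against 2.78% of all genes higher and 2.77% lower. These counts exceed the background shares by few genes and are not read as a result about the members. A positive difference was found for 21 members and a negative one for 11, against 36.9% positive over all genes tested. The median was 0.17 against -0.05 over all genes.

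Wls, on chromosome 3 at 159839672 to 159938664 (plus strand), was chosen also because it stands on a list the study drew from these samples. Its direction is therefore not independent evidence. That list holds the female genes the study called at a false discovery rate under 0.05 by a Wald test in Sleuth. The limma fit used here did not call Wls. It was 22.5, 28.6 and 20.4 TPM in AVP females 3, 10 and 11 and 16.8, 13.7, 13.4 and 16.8 TPM in saline females 6, 7, 14 and 15. Every AVP female lay above every saline female, 23.8 ± 4.23 (SD, n = 3) against 15.2 ± 1.88 TPM (SD, n = 4) (exact permutation test, two-sided, p = 0.0286, which is the floor for this design). The log2 difference was 0.63 (SE 0.16, limma adjusted p = 0.999). It was 0.55 within the first run (1 against 2 libraries) and 0.67 within the second (2 against 2). Without AVP female 10 it was 0.49 (limma adjusted p = 0.472).

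The meningeal fibroblast markers moved with Wls. Their summed level over 12 genes, none at 0 in all libraries and 10 at 1 TPM or more in all, was 225 to 323 TPM in AVP females and 134 to 165 TPM in saline females. Of these genes, Col1a1, Col1a2, Dcn and Slc6a13 stand on the same list of the study as Wls. The female difference of these markers is therefore not independent evidence. The 10 endothelial markers were 236 to 245 TPM in AVP females and 144 to 224 TPM in saline females, and the 8 mural markers 96.2 to 104 TPM and 68.2 to 87.8 TPM. The part of these cells in the Wls difference was not tested, and in bulk tissue more cells of a type and more RNA per cell cannot be told apart. The sums of all other marker lists used here overlapped between the female groups. In males the meningeal sums overlapped, at 145 to 301 TPM with AVP and 70.6 to 313 TPM with saline. The male endothelial sums (188 to 220 TPM with AVP, 166 to 274 TPM with saline) and mural sums (71.3 to 90.3 and 69.5 to 115 TPM) overlapped as well.

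Lef1, on chromosome 3 at 131110471 to 131224356 (plus strand), was 3.08, 5.69 and 4.04 TPM in AVP females and 2.67, 2.59, 2.50 and 2.38 TPM in saline females, again without overlap. The means were 4.27 ± 1.32 (SD, n = 3) and 2.53 ± 0.123 TPM (SD, n = 4), with an exact permutation p of 0.0286. The log2 difference was 0.62 (SE 0.22, limma adjusted p = 0.999). Without AVP female 10 it was 0.41 (limma adjusted p = 0.479) and no longer under an unadjusted 0.05. It was 0.19 within the first run and 0.85 within the second, which holds AVP female 10. The library labelled saline male 12, whose sex label is in doubt, was at 3.82 TPM for Lef1, above AVP female 3. Its Wls (18.1 TPM) and Sfrp1 (40.3 TPM) lay below all AVP females. That library was not counted with the females here.

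Sfrp1 was 41.8, 42.3 and 42.0 TPM with AVP and 36.1, 39.6, 40.8 and 39.3 TPM with saline in females, a small gap (exact permutation p = 0.0571) with a log2 difference of 0.11. Axin2, the other feedback target, was 12.6, 17.7 and 11.6 TPM with AVP and 12.8, 9.99, 10.6 and 11.2 TPM with saline, so saline female 6 lay above 2 of the 3 AVP libraries. Its log2 difference was 0.29, and 0.11 without AVP female 10. Fzd6, a receptor known in planar polarity, was 6.14, 7.98 and 5.25 TPM with AVP and 4.79, 4.81, 5.97 and 3.25 TPM with saline (log2 difference 0.43, limma adjusted p = 0.999, and 0.27 without AVP female 10). Dkk3 was 27.3, 28.2 and 23.9 TPM with AVP and 38.5, 31.8, 32.1 and 27.2 TPM with saline, with a log2 difference of -0.28 (limma adjusted p = 0.999). Fzd9 was 6.21, 5.31 and 4.27 TPM with AVP and 7.30, 6.66, 6.69 and 5.80 TPM with saline, with a log2 difference of -0.31 (limma adjusted p = 0.999), and AVP female 3 overlapped the saline values.

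**Figure D2:**
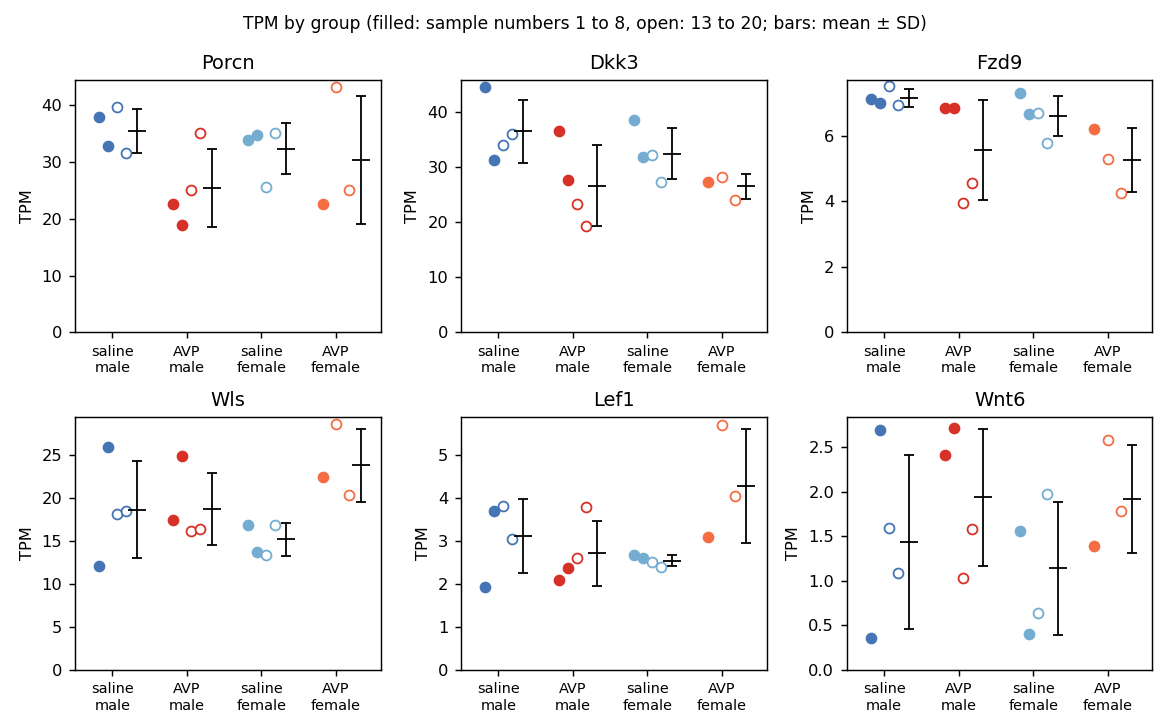
TPM of 6 members by group, 1 point per library (filled for sample numbers 1 to 8 in the labels, open for 13 to 20), with mean ± SD in black. AVP females lay above saline females for Wls and Lef1, and AVP males lay below saline males for Fzd9, where the low AVP values, 3.94 and 4.57 TPM, were both open points.

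With both sexes in 1 fit and sex as a term, 0 of 32 members passed an adjusted p of 0.05 by limma (0% of 15078 genes). At an unadjusted p under 0.05, 3 members were lower with AVP and 0 higher, against 9.69% and 0.683% of all genes. Dkk3 had a log2 difference of -0.38 (SE 0.12, limma adjusted p = 0.462), Fzd9 of -0.35 (SE 0.12) and Porcn of -0.34 (SE 0.15). Without the library labelled saline male 12 the Porcn difference was -0.29, no longer under an unadjusted 0.05, and without AVP female 10 it was -0.47. Porcn stayed under 0.05 only when the library left out was AVP male 9, AVP female 10 or saline female 14, with differences from -0.47 to -0.26 over all libraries left out in turn. Without AVP female 10 the members split into 14 positive and 18 negative differences. Without the library labelled saline male 12, Dkk3 was at -0.39 and Fzd9 at -0.33. Wls (0.31, or 0.33 without that library) and Wnt6 (0.53, or 0.58) followed by p and did not pass. Of the 32, 20 had a positive and 12 a negative difference, against 26.1% positive over all genes tested. Under either other scaling 27 were positive, as the median of all genes moved from -0.08 to 0.01 (quantile) or -0.01 (median-of-ratios).

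The interaction asked whether the AVP difference itself differed between the sexes. By limma 0 of 32 members passed an adjusted p of 0.05 (0% of all genes), and 2 had an unadjusted p under 0.05, against 4.14% of all genes. The female minus male difference was 0.79 for Lef1 (SE 0.32, limma adjusted p = 0.896) and 0.73 for Tcf7l2 (SE 0.33, limma adjusted p = 0.896). It was 0.66 for Fzd6 and 0.59 for Wls, neither past the threshold, with the same values without the library labelled saline male 12. Neither Lef1 (0.58) nor Tcf7l2 (0.54) stayed under an unadjusted 0.05 without AVP female 10, nor did they without the library labelled saline male 12 (0.69 and 0.67), AVP male 1 (0.69 and 0.68) or saline male 5 (0.70 and 0.68). Tcf7l2 also missed it without AVP male 2 or 8, AVP female 11, or saline female 6, 14 or 15, with differences from 0.54 to 0.99 over all libraries left out in turn. A different response of the sexes was therefore not shown for any member.

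Between males and females, with treatment as a term, 0 members passed an adjusted p of 0.05 by limma (0% of all genes) and 0 an unadjusted one, against 1.39% of all genes. The smallest p belonged to Dkk2, an inhibitor that binds the co-receptors, with a male minus female log2 difference of 0.21 (SE 0.13), followed by Wnt5b at 0.15. The sex label of saline male 12 is in doubt, which bears directly on this comparison. Without that library the differences were 0.25 and 0.19, and again 0 members had an unadjusted p under 0.05, with 13 positive and 19 negative differences in place of 16 and 16.

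**Figure D3:**
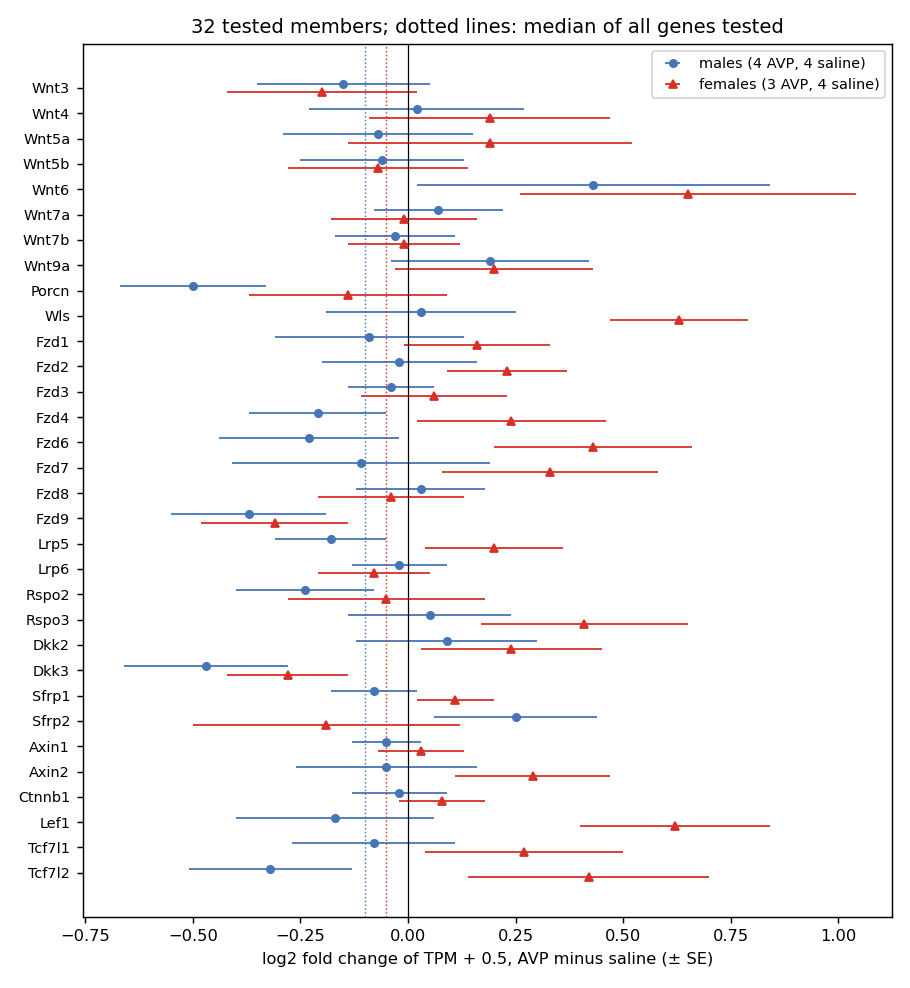
Log2 differences of AVP minus saline (± SE) for the 32 members tested, in males (circles) and females (triangles), with dotted lines at the medians of all genes tested (-0.10 and -0.05). Porcn (-0.50) and Dkk3 (-0.47) lay lowest in males, and Wnt6 (0.65), Wls (0.63) and Lef1 (0.62) highest in females.

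Beyond the members, 56 further Wnt pathway genes were followed. Of the 45 tested in males, 0 passed an adjusted p of 0.05 by limma. At an unadjusted p under 0.05, 10 were lower and 0 higher, against 12.4% and 1.11% of all genes. They had 42 negative and 3 positive differences, against 26.4% positive over all genes, with a median of -0.18 against -0.10. The members' male split turned with the scaling, and no other scaling was run for these genes. Their split is therefore not read as a result about the pathway. Bcl9, a β-catenin co-activator, had the smallest p (log2 difference -0.34, limma adjusted p = 0.304), followed by Apc2 of the destruction complex family (-0.21). Of the 46 tested in females, 3 were higher and 1 lower at an unadjusted p under 0.05, against 2.34% and 2.17% of all genes, and 0 passed an adjusted one. Adgra2, a co-activator of Wnt7 signals in brain endothelium, had a log2 difference of 0.57 (limma adjusted p = 0.999), the receptor Ror2 had 0.42 and the β-catenin inhibitor Ctnnbip1 had -0.22. Over both sexes 3 of 45 were lower and 0 higher at an unadjusted p under 0.05, against 9.69% and 0.683% of all genes, with the smallest p for Pygo2 (-0.17) and Gsk3a (-0.14). In the interaction 3 of 45 had an unadjusted p under 0.05, against 4.14% of all genes. There Tcf7, another TCF factor, had a female minus male difference of 0.71 (limma adjusted p = 0.896) and Ctnnbip1 had -0.23. Between the sexes 0 of 45 had an unadjusted p under 0.05, against 1.39% of all genes.

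Libraries differed in a set of members known from the hem and other medial or caudal tissue, chosen here after their values were seen. Wnt8b, a marker of the medial cortical wall, was 1.86 TPM in AVP female 10, 0.728 TPM in saline male 5, 0.514 TPM in saline female 6 and 0.445 TPM in saline female 7, and at most 0.167 TPM in the other 11. Wnt3a, the hem ligand needed for hippocampal growth, was highest in AVP female 10 at 0.453 TPM, followed by saline female 6 at 0.231 TPM and saline female 7 at 0.217 TPM. Rspo1 was 3.38 TPM in AVP female 10 and at most 1.47 TPM elsewhere. Wnt2b (1.14 TPM), Wnt5a (11.1 TPM) and Tcf7l2 (2.97 TPM) were also highest there. The summed hem and Cajal-Retzius markers (132 TPM), thalamus markers (332 TPM) and radial glia markers (3140 TPM) were likewise highest in AVP female 10. The part of these markers in the member values was not tested. The hem and Cajal-Retzius sum was next highest in AVP male 9 (127 TPM) and saline female 15 (117 TPM), where Wnt8b was 0.0495 and 0 TPM. Saline male 5 and saline females 6 and 7 were at 96.1, 86.0 and 85.3 TPM. As a mean log2 level the hem and Cajal-Retzius list was 2.46 in AVP female 10 and 2.11 in saline male 5. It was 1.94 in AVP male 9 and 1.54 in saline female 15.

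**Figure D4:**
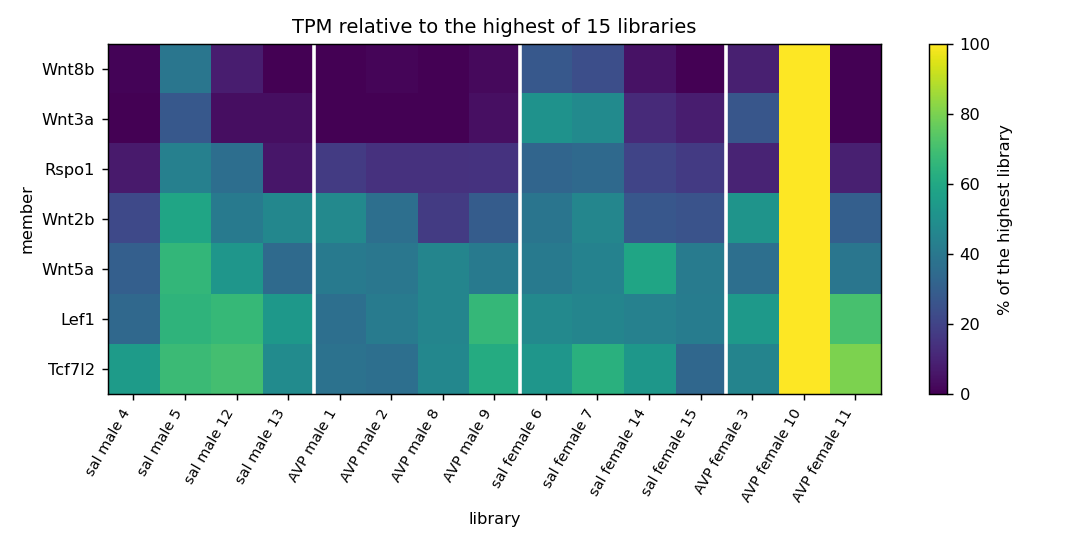
TPM of 7 members as a percentage of the highest of 15 libraries, with libraries ordered by group (sal, saline). AVP female 10 was the highest library for all 7, and saline male 5 and saline females 6 and 7 carried the next highest Wnt8b values, 0.728, 0.514 and 0.445 TPM.

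Across the 15 libraries the level of each tested member was set against the mean log2 level of 9 marker lists, 288 pairs in all, with permutation tests. Of these, 14 pairs passed an adjusted p of 0.05 by both Pearson's r and Spearman's rho, all positive. They were 5 with brain endothelium, 2 each with the hem and Cajal-Retzius, meningeal, mural and thalamus lists and 1 with red blood cells. The weakest of these pairs had an r of 0.69 and a rho of 0.73. Of all pairs of an expressed gene with a list that does not hold it, 1.28% (1730 of 135631) reached both values, against 4.86% of the member pairs, and the endothelial list took 2.03% of all genes and 15.6% of the members. Genes are not independent, and this difference was not tested. Choroid plexus markers split the libraries into 2 clusters, so no correlation was computed for them. The libraries share the same TPM scale.

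Wls followed the meningeal markers most closely, with r = 0.86 and rho = 0.89 (permutation p = 4e-05 each, adjusted p = 0.00792 and 0.0115). Without the 2 farthest libraries r was 0.87, within the runs it was 0.94 (n = 7) and 0.76 (n = 8), and after the group means were removed it was 0.80. Fzd6 followed the endothelial list (r = 0.85, rho = 0.82), the mural list (0.80 and 0.81) and the meningeal list (0.73 and 0.74), and r fell to 0.70, 0.66 and 0.62 without the 2 farthest libraries. Fzd4, known as a receptor of brain vessels, followed the endothelial (0.80 and 0.77) and mural (0.74 and 0.73) lists. Fzd7 followed the hem and Cajal-Retzius list with r = 0.87 and rho = 0.81 and Fzd1 with 0.81 and 0.80. Without the 2 farthest libraries r was 0.80 and 0.76. The genes of this list were Trp73, Lhx5, Lhx1, Lmx1a, Msx1, Reln, Ndnf and Ebf2, so it does not measure the hem alone. Fzd1 also followed the endothelial list, with r = 0.73 and rho = 0.80. Wnt5a (0.85 and 0.79) and Lrp6 (0.72 and 0.81) followed the thalamus list, with r of 0.73 and 0.57 without AVP female 10 and AVP male 1, the 2 farthest. That list held Gbx2, Lhx9, Rora, Slc17a6, Lhx2, Cdh6, Prkcd and Calb2. Whether the libraries held thalamic tissue was not tested. Fzd2 followed the red blood cell list (0.77 and 0.76).

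The 2 farthest libraries were those farthest from the median of each list, so they differed between lists. For brain endothelium they were saline female 15 and saline male 5. With each list's own 2 farthest libraries left out, 0 pairs passed both thresholds, and without AVP female 10 alone 2 pairs did. Within the first run 3 pairs passed and within the second 0.

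**Figure D5:**
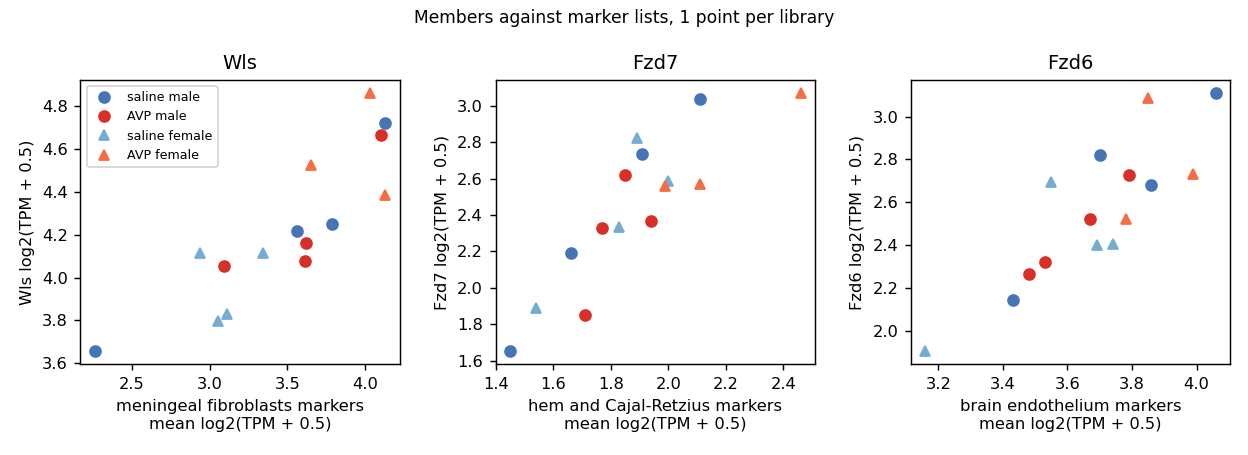
Log2(TPM + 0.5) of Wls, Fzd7 and Fzd6 against the mean log2(TPM + 0.5) of 1 marker list each, 1 point per library and coloured by group. The lists are meningeal for Wls, hem and Cajal-Retzius for Fzd7, and endothelial for Fzd6. Points run from lower left to upper right in each panel, with r = 0.86, 0.87 and 0.85.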

How the data were processed

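Stranded mRNA libraries from E18 dorsal forebrain were sequenced as paired ends. Per the labels and the study's methods, the authors trimmed reads with Trim Galore 0.4.1, checked them with FastQC 0.5.2 and quantified them with Kallisto 0.43.1 against GENCODE M16 (GRCm38), with bias correction. The deposited values are TPM per transcript, which sum to the same total in each library, so a gain of 1 gene lowers the others. Depth per library is unknown from these values, and no counting interval or floor was computed. The table had 0 columns without a sample.

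TPM was summed to genes with GENCODE M21 of the same build. 404 of 133849 transcripts had no gene there (0.154 to 0.199% of TPM). Genes at 1 TPM or more in at least 50% of libraries were tested with limma 3.58.1 (R 4.3.3) on log2(TPM + 0.5) with a mean trend. Benjamini-Hochberg adjustment ran over all genes tested, with a threshold of 0.05, and 32 of 48 members passed the filter. The 16 untested members were the ligands Wnt1, Wnt2, Wnt2b, Wnt3a, Wnt8a, Wnt8b, Wnt9b, Wnt10a, Wnt10b, Wnt11 and Wnt16, and Fzd5, Fzd10, Rspo1, Dkk1 and Sfrp5. Single members were compared by exact two-sided permutation tests, and correlations used 100000 permutations (Python 3.11.15). On simulated data the male fit recovered 68.2% and the female fit 47.4% of genes changed by 1 on the log2 scale, and 96.3% and 89.9% of those changed by 2.

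All 48 members were accounted for by role. Values per library are given for the highest members of each role, for Wls, Axin2 and Lef1, for up to 5 members with the smallest p in each AVP comparison (groups that do not overlap first) and for members correlated with a marker list, up to 3 a list. Of the other pathway genes, up to 2 in each direction are named. The members and lists were chosen with earlier results of these data known. Counting pairs past both the r and rho thresholds, and leaving choroid plexus out of the correlations, were chosen after seeing the files, as was the share of all genes set beside the correlated members. Alternatives were other scalings, filters, pseudocounts, no trend, the run of sample numbers as a term and leaving out each library. No source used here says what the runs of sample numbers are.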

Additional observations from a re-analysis of the deposited data

Results flagged for a closer look

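In groups of 4 libraries, 1 library stood far from the other 3 in 6 of 96 groups examined (32 members in 3 groups), where chance gives about 1 in 20, or 4.8. Wls was 24.9 TPM in AVP male 2 and 16.1 to 17.4 TPM in the other AVP males. Lrp5 was 8.74 TPM in AVP male 9 and 6.52 to 6.69 TPM in the others. Wnt7a was 11.4 TPM in saline male 13 and 14.4 to 14.8 TPM in the other saline males. In saline male 5, Fzd2 was 10.1 TPM against 6.98 to 7.43 TPM and Rspo2 was 8.48 TPM against 9.51 to 9.66 TPM. Porcn was 25.6 TPM in saline female 14 and 33.8 to 35.1 TPM in the other saline females.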

How the results depend on the processing

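No paired analysis was possible because the replicate numbers are unique over all groups and pair no samples. Members past an unadjusted p of 0.05 in males were 1 under quantile normalization and 1 under median-of-ratios scaling. The count over all genes at an adjusted p in males was 0 with at least 5 TPM in every library, with a pseudocount of 1, with the run of sample numbers as a term and in 1 fit of all 15 libraries, and 2 without the trend. In females 1 member had an unadjusted p under 0.05 with at least 5 TPM in every library, where 17 members were tested. In the interaction the count was 1 under quantile normalization, under the filter of 5 TPM and with the run term, and 4 without the trend. Between the sexes it was 1 with no filter. Single male members past the exact test numbered 0 under median-of-ratios scaling, an alternative added once the data had been seen. Correlated pairs numbered 0 without the 2 farthest libraries, 3 in the first run and 0 in the second, and, also added then, 9 without the library labelled saline male 12 and 2 without AVP female 10. The cause of these changes was not tested. For these settings the share of all genes at an unadjusted p was not computed, so the member counts stand without a background.

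With each library left out in turn, all genes past an adjusted p numbered 0 to 6 in males (6 without AVP male 2), 0 to 6 in females (6 without saline female 15), 0 to 1 over both sexes, 0 to 1 in the interaction and 0 to 7 between the sexes. Members past an unadjusted p numbered 1 to 4 in males (1 without AVP male 8 or saline male 13, 4 without AVP male 1), 2 to 4 in females (4 without AVP female 3) and 0 to 5 in the interaction, and the last was 0 without AVP male 1, saline male 5, the library labelled saline male 12 or AVP female 10. Single male members past the exact test numbered 0 to 3. The share of all genes past either test was not computed for these refits. The member counts are therefore not read as results about the members. The male Axin2 difference turned to 0.08 under quantile normalization and 0.05 under median-of-ratios scaling, and ranged from -0.24 to 0.07 with a library left out. The male Wls difference ranged from -0.15 to 0.20 and was -0.11 without AVP male 2. The positive share of members in the interaction was 81.2% (61.2% over all genes), against 59.4% under quantile normalization and 71.9% under median-of-ratios scaling, as the all-gene median moved from 0.07 to -0.01 under both.  Depth per library is unknown, so its share in the spread was not computed.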
